A study of Mus musculus with 9 samples.

Results

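RNA of the unfolded protein response and of the chaperones of the endoplasmic reticulum (ER) was compared between testes of Tmem203 null and wild type (WT) mice. The members are a list of 48 genes fixed by their known function, namely the sensors and transcription factors of the 3 arms of the response, the PERK targets, the general and the germ-cell chaperones, ER-associated degradation (ERAD) and a small group of translocon and ER membrane proteins. Of these, 47 had a probe set annotated to that gene alone, out of 18193 such genes on the arrays, and Eif2s1 had none in the annotation used. The 47 genes were read by 108 probe sets, 103 of them detected, which here means that 1 or more arrays reached a log2 signal of 5. Each gene is given by its probe set with the highest mean over the 9 arrays, and where a value of another detected probe set is given, the text says so.

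Both groups were C57BL/6J mice 24 weeks old, 4 WT and 5 Tmem203 null samples, each hybridised to its own Affymetrix expression array for mouse, and the harvested testes were not treated. The null allele is carried in every cell of the animal. In it a short vector remnant takes the place of the start codon and of part of the 5′ leader of the gene. Whole testes were used, so fewer cells of a type and less RNA per cell cannot be told apart in any value here. The null samples are described as testes of 5 mice, while left and right testes were collected separately and the labels do not map each array to an animal, so the spread behind each p-value is that among these samples and may in part be technical.

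The ER folds secreted and membrane proteins with chaperones that in large part need calcium, which the lumen stores. When unfolded protein accumulates, or calcium of the store runs low, the sensors ATF6, IRE1 (gene Ern1) and PERK (gene Eif2ak3) start a response that raises chaperones, slows translation and sends misfolded protein to the proteasome. ATF6 acts by cleavage, IRE1 by splicing of Xbp1 RNA and PERK by phosphorylation of eIF2 alpha, and none of these steps was measured here, only amounts of RNA. Spermatids also use chaperones of their own: Calr3 (calsperin) and Clgn (calmegin) are relatives of calreticulin and calnexin, and Pdilt is a relative of protein disulfide isomerase, and they serve the folding of sperm surface proteins such as ADAM3. TMEM203 itself is an ER protein that the study ties to the calcium store.

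Many genes of the list are known targets of the same response elements, and the promoter sequences show these. In RefSeq windows of GRCm38.p6 that run from 250 bases before to 50 after the annotated start, 41 of the 48 listed genes had a sequence. The ER stress response element, searched on both strands as CCAAT and CCACG with 9 free bases between them, was in 10 of them (24.4%), against 0.137% of 27025 genes. These were Calr, Canx, Creld2, Derl3, Dnajc3, Ero1b, Hsp90b1, Hspa5, Pdia6 and Syvn1. The members were listed as known targets, so the share describes the list and is no finding. The shorter second form of the element, ATTGG and CCACG with 1 free base between them, was found in Dnajb11 and Herpud1. The C/EBP-ATF element bound by ATF4, searched as TGATGNAA on both strands, was in 4 members, Asns, Chac1, Herpud1 and Trib3, against 4.51% of all genes. No match of one of these elements overlapped a match of another in these members. The sites are shown for the leading chaperones, for an ERAD gene and for a pair of PERK targets, with the letters that were searched in capitals and the free positions in lower case, each in the orientation of the element.
Hspa5: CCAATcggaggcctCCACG
Calr: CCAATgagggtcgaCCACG
Canx: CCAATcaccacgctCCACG
Derl3: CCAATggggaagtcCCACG
Chac1: TGATGcAA
Asns: TGATGaAA
They lie at chr2:34772025-34772043 before Hspa5 (gene on the plus strand), chr8:84847075-84847093 before Calr (minus), chr11:50325800-50325818 before Canx (minus) and chr10:75893242-75893260 before Derl3 (plus). Those of the PERK targets lie at chr2:119351049-119351056 for Chac1 (plus) and chr6:7693225-7693232 for Asns (minus). A match of letters is a description and not evidence of binding.

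The arrays were alike, with medians between 6.96 and 7.05 and a correlation of any array with its nearest other array between 0.996 and 0.998, the lowest for WT replicate 3. Tmem203 itself had a log2 signal between 9.67 and 9.93 in WT and between 9.06 and 9.13 in null samples. Of the control transcripts that read RNA integrity, Gapdh had a 3′ minus 5′ difference of 0.93 ± 0.01 in the 4 WT and 0.85 ± 0.04 in the 5 null samples (mean ± SD, two-sided exact permutation test, p = 0.0238, adjusted over both controls p = 0.0476), and beta-actin differed by -0.03 (exact p = 0.341). The lower Gapdh value moves with the genotype beside every result below, and its part was not tested.

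Across the 47 members, limma with an adjusted p below 0.05 called 1 gene higher in null testes and 1 lower, and it left 45 uncalled. Derl1, a channel component of ERAD, was the one that rose, and Chac1, an enzyme that degrades glutathione and a target of ATF4 and CHOP, the one that fell. Over all genes by the same rule 10.6% passed, 5.82% higher and 4.82% lower. Chac1 alone also changed at least 1.5-fold, as 1.81% of all genes did (0.995% higher, 0.813% lower). The median log2 fold change of the members was 0.02, against -0.02 over all genes. In 9 members the WT and null samples did not overlap, 5 higher and 4 lower, where 16.6% of all genes were separated in this way (7.81% higher, 8.81% lower). At an unadjusted p under 0.05 there were 13 members, against 29.1% of all genes.

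The estimates on 1 probe set per gene were narrow enough to bound most members. For 33 of 47 members, on that probe set, the whole 95% confidence interval of the difference lay within a 1.2-fold change either way, and for 44 within 1.5-fold. The 3 members outside the wider bound were Ern1, Eif2ak3 and Chac1. Over 16170 genes whose highest probe set was detected the shares were 44.3% and 90.2%, with a median standard error of 0.07 against 0.05 for the members. Counting every detected probe set of a gene, 21 of 47 members stayed within 1.2-fold. Atf6 and Derl2 are among those inside on their highest probe set and outside on another, Atf6 with an interval of 0.25 to 0.61 and Derl2 with 0.10 to 0.45. The 1.2-fold bound was chosen after the values were seen.

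**Figure D1:**
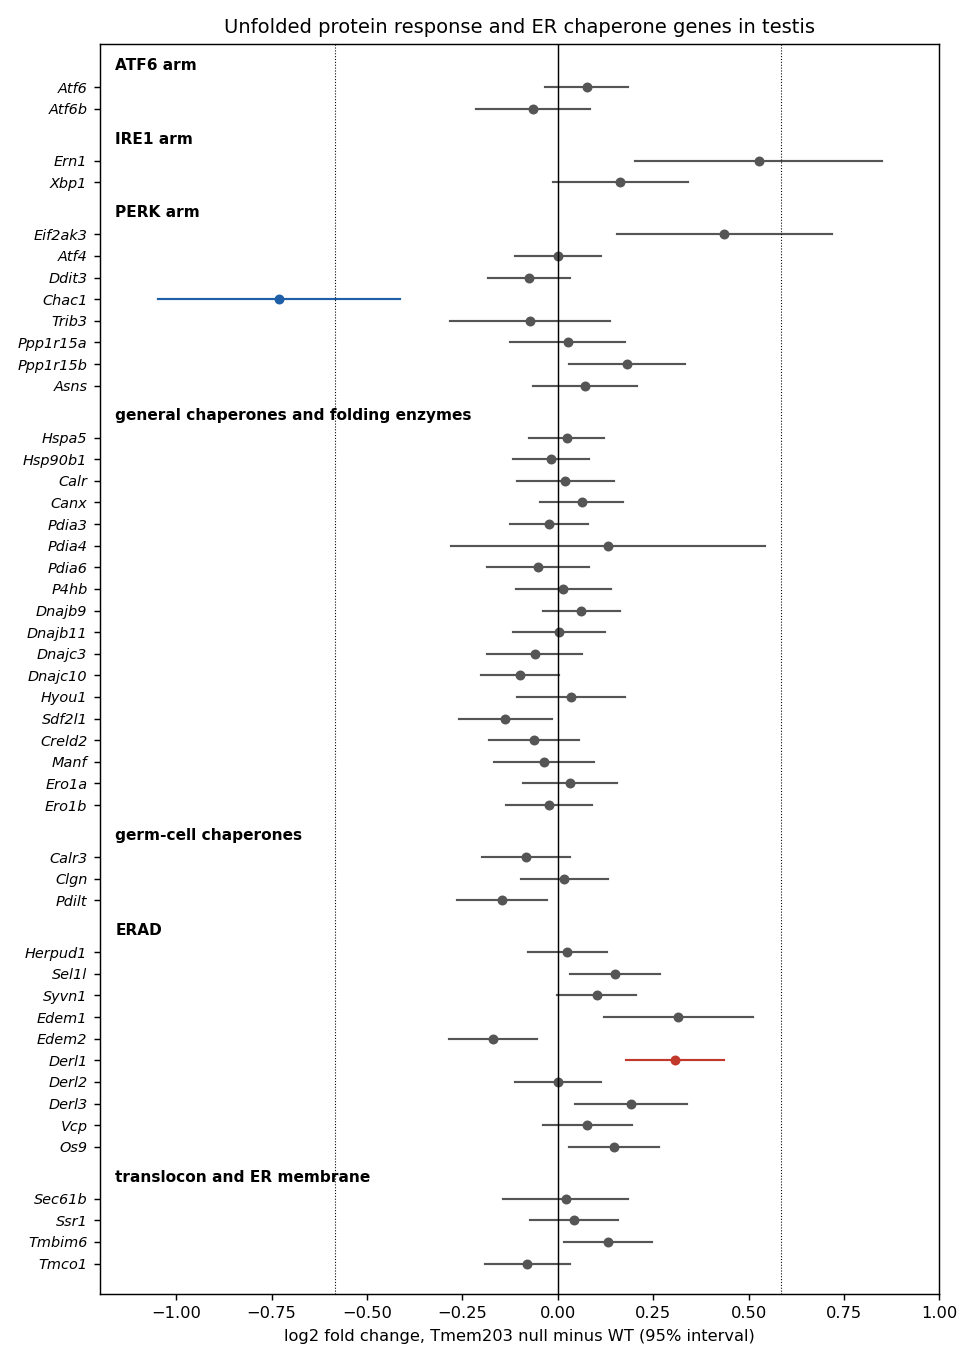
Log2 fold change (x axis, Tmem203 null minus WT, from limma) of each of the 47 members (rows, grouped by role) with its 95% confidence interval, 4 WT against 5 null samples. Blue is lower and red higher at an adjusted p under 0.05, grey did not pass, and the dotted lines mark 1.5-fold: Chac1 at -0.73 and Derl1 at 0.31 are the coloured points.

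The general chaperones and folding enzymes showed small differences between WT and null testes. Of 18 genes none passed the test, and 16 had an estimate under 0.1 in size on the log2 scale. Unadjusted, 1 of them had a p under 0.05, Sdf2l1 at -0.14 (adjusted p = 0.164). Hspa5 encodes BiP, the main Hsp70 chaperone of the ER lumen and the standard reporter of the response. Its log2 signal was 13.02, 13.04, 13.10 and 13.05 in the WT samples and 13.09, 13.10, 13.08, 13.07 and 13.05 in the null samples. The groups overlapped, with a difference of 0.02 (95% interval -0.07 to 0.12, adjusted p = 0.794).
Hsp90b1, the ER member of the Hsp90 family, had a difference of -0.02 (95% interval -0.12 to 0.08, adjusted p = 0.847). Calreticulin, the main calcium-binding chaperone of the lumen, is encoded by Calr. Its log2 signal was 13.21, 13.20, 13.24 and 13.29 in WT and 13.16, 13.28, 13.24, 13.39 and 13.21 in null samples, a difference of 0.02 (95% interval -0.11 to 0.15, adjusted p = 0.870). The null samples lay on both sides of the WT samples. Its membrane-bound partner Canx was at 0.06 (95% interval -0.05 to 0.17, adjusted p = 0.493).
The disulfide isomerases that work with them were close to 0 as well. Pdia3, which joins calreticulin and calnexin, was at -0.02 (95% interval -0.13 to 0.08, adjusted p = 0.798), and P4hb at 0.01 (95% interval -0.11 to 0.14, adjusted p = 0.904). Dnajc10, a reductase of ERAD clients, had its 5 null values all below its 4 WT values with a difference of -0.10, and it did not pass (adjusted p = 0.236). The widest interval of the group was that of Pdia4, from -0.28 to 0.54, and the other 17 intervals lay within 1.2-fold on the highest probe set. On every detected probe set this held for 12 of the 18 genes, the others being Calr, Dnajc3, Hyou1, Ero1a, Ero1b and Pdia4.
The 10 members with an ER stress response element shown or named above had differences between -0.06 and 0.19, with a median of 0.00. None passed the test (1 at an unadjusted p under 0.05), and on the highest probe set 9 of the 10 intervals lay within 1.2-fold, the exception being Derl3. The 30 members with a promoter sequence and no such match had a median of 0.02.

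The germ-cell chaperones were read at 3 genes, none of which passed on its highest probe set. Pdilt had a log2 signal of 12.67, 12.59, 12.54 and 12.57 in WT and 12.35, 12.50, 12.43, 12.51 and 12.44 in null samples. Every null sample was below every WT sample, by a difference of -0.15 (standard error 0.05, 95% interval -0.27 to -0.03, adjusted p = 0.129). The second probe set of Pdilt gave the same size, -0.15 (adjusted p = 0.166).
Calr3 was at -0.08 (adjusted p = 0.374) on its highest and at -0.08 on its dimmest probe set, and the groups overlapped on both. On the second probe set it passed, with 12.59, 12.48, 12.59 and 12.63 in WT and 12.32, 12.38, 12.39, 12.35 and 12.29 in null samples, a fold change of -0.23 (standard error 0.05, adjusted p = 0.0235). All null values lay below all WT values there. Clgn differed little on any of its probe sets, which lay between 0.01 and 0.02, and its 95% interval ran from -0.10 to 0.13 (adjusted p = 0.877).
Markers of meiotic and later germ cells had mostly negative differences in the same samples, and none passed. The mean log2 signal of 9 round spermatid markers ranged from 12.91 to 13.06 in WT and from 12.84 to 12.94 in null samples, all 9 with a negative difference (0 passed, 3 at an unadjusted p under 0.05). Over 8 spermatocyte markers the range was 12.00 to 12.08 in WT and 11.92 to 12.00 in null samples, with 6 negative differences. The 10 elongating spermatid markers were at 14.07 to 14.09 and 14.04 to 14.08. All of these markers were detected, and their part in the values of Pdilt and Calr3 was not tested.
Among 16 sperm surface proteins, several of them clients of these chaperones, 11 had a negative difference and none passed the test, with 5 at an unadjusted p under 0.05 and a median of -0.08. The 3 with the smallest p were Izumo1, which binds the egg receptor, at -0.22 (adjusted p = 0.0750), Ly6k at -0.21 (adjusted p = 0.0779) and the dipeptidase gene Ace at -0.15 (adjusted p = 0.108). Izumo1 and Spaca1 are in this list and also among the round spermatid markers above, so these lists are not separate observations.

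The sensor genes Ern1 and Eif2ak3 had the largest positive estimates of the 47 members, and no sensor passed on its highest probe set. Ern1, the IRE1 kinase and nuclease, had a log2 signal of 8.31, 7.75, 7.88 and 8.38 in WT and 8.87, 8.41, 8.65, 8.41 and 8.71 in null samples. The groups did not overlap, but the lowest null sample was close to the highest WT sample. The difference of 0.53 (standard error 0.15, 95% interval 0.20 to 0.85) had an adjusted p of 0.0557, and other detected probe sets of the gene were at 0.14 and -0.04.
Eif2ak3, which encodes PERK, was at 7.07, 6.70, 6.86 and 6.58 in WT and at 7.56, 7.07, 7.31, 6.997 and 7.27 in null samples. WT replicate 1 reached the level of null replicates 2 and 4, and the other WT samples were below all null samples. Its difference was 0.44 (standard error 0.13, 95% interval 0.15 to 0.72, adjusted p = 0.0662), and another detected probe set was at 0.02.
Atf6, the sensor that is itself cleaved to a transcription factor, was at 0.08 (95% interval -0.03 to 0.19, adjusted p = 0.396) on its highest probe set. On its second one it passed, with 8.23, 8.12, 7.91 and 8.18 in WT and 8.71, 8.44, 8.57, 8.44 and 8.55 in null samples, all null values above all WT values. There the fold change was 0.43 (standard error 0.08, adjusted p = 0.0106), and the third probe set was at 0.18 (adjusted p = 0.0840). Its relative Atf6b was at -0.06 (adjusted p = 0.610).
Xbp1, the transcription factor made active by IRE1, was read by 4 probe sets with differences between 0.16 and 0.27, none past the test. On the highest its signal was 8.62, 8.73, 8.69 and 8.47 in WT and 8.99, 8.85, 8.67, 8.72 and 8.73 in null samples. These groups overlapped (95% interval of the difference -0.01 to 0.34, adjusted p = 0.252).

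**Figure D2:**
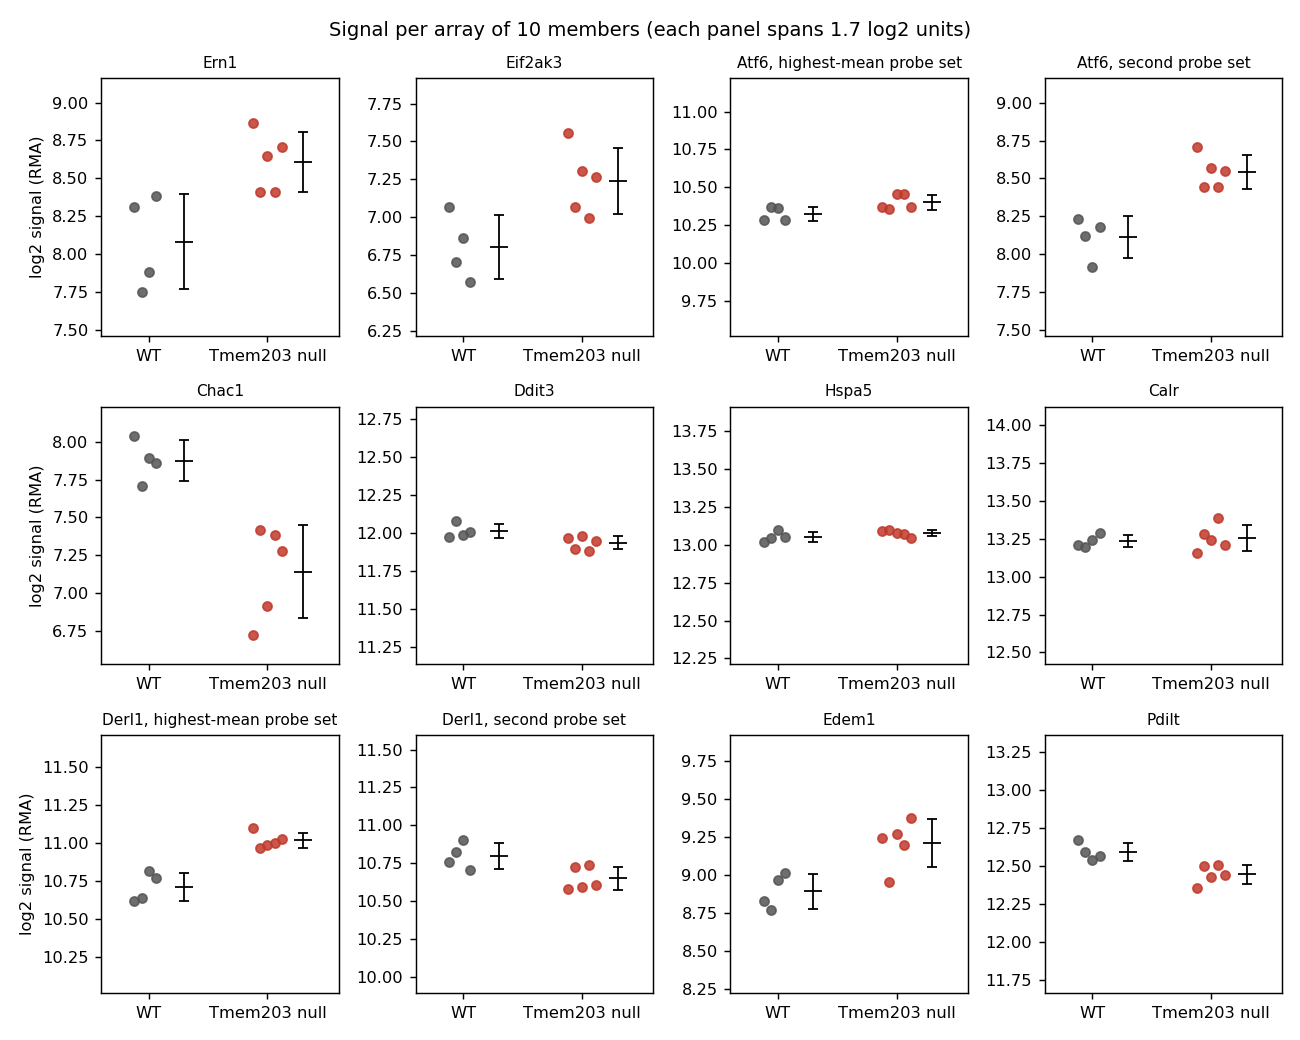
Log2 signal (RMA, y axis) for 10 members, with WT arrays (n = 4) in grey and Tmem203 null arrays (n = 5) in red and mean and SD in black. Each panel spans 1.7 log2 units. Chac1 is separated downwards, with values of 6.72 to 7.42 in null and 7.71 to 8.04 in WT samples, the highest probe set of Derl1 and the second of Atf6 are separated upwards, and Hspa5 and Calr overlap.

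Below PERK, the members did not move as a group. Chac1, read by 1 probe set, fell from 8.04, 7.71, 7.89 and 7.86 in WT to 6.72, 7.42, 6.91, 7.38 and 7.28 in null samples, a fold change of -0.73 (standard error 0.14, 95% interval -1.05 to -0.41, adjusted p = 0.0138), which is 1.66-fold. As an alternative, the methods' t-test, named there for the study in general and not for the arrays, gave Chac1 a Benjamini-Hochberg adjusted p of 0.0599. The groups did not overlap, and the null samples, with an SD of 0.31, were more spread than the WT samples with 0.13. The upstream factors of Chac1 differed less. Atf4 was at 0.00 (95% interval -0.11 to 0.11, adjusted p = 0.996) and Ddit3, which encodes CHOP, at -0.08 (95% interval -0.18 to 0.03, adjusted p = 0.386). The other targets that carry the C/EBP-ATF element were at 0.07 for Asns, the asparagine synthetase (adjusted p = 0.531), at 0.03 for Herpud1 (adjusted p = 0.787) and at -0.07 for the pseudokinase gene Trib3 (adjusted p = 0.688), whose brighter probe set reached the detection threshold only in WT replicate 3 and null replicate 1. Ppp1r15a, the inducible subunit that ends eIF2 alpha phosphorylation, was at 0.03 (95% interval -0.13 to 0.18, adjusted p = 0.857). Its constitutive relative Ppp1r15b gave 0.18 on one probe set and -0.19 on another, neither past the test (adjusted p = 0.147 and 0.0655).

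In ERAD, 9 of 10 members had a positive difference, 1 passed and 9 did not, with a median of 0.13. Over all genes 8102 of 18193 were positive and 10.6% passed. Unadjusted, 6 had a p under 0.05, 5 of them positive, against 29.1% of all genes. On average over the 10 genes, each on its highest probe set, the log2 signal was 10.74 to 10.78 in the WT samples and 10.84 to 10.91 in the null samples, and the samples did not overlap. With the mean over a gene's probe sets the differences were smaller for Derl1 (0.15), Edem1 (0.09), Sel1l (0.08) and Syvn1 (0.04). Derl1 was at 10.62, 10.64, 10.81 and 10.77 in WT and at 11.10, 10.97, 10.99, 11.00 and 11.03 in null samples. All null samples were higher, with a rise of 0.31 (standard error 0.06, 95% interval 0.18 to 0.44, adjusted p = 0.0114), which is 1.24-fold. A further probe set rose by 0.36 (adjusted p = 0.00494), while the remaining 2 were at -0.15 (adjusted p = 0.179) and 0.09 (adjusted p = 0.512). The 2 that passed carry the suffix that Affymetrix gives to probe sets able to match more than 1 transcript, and those that did not pass do not. Without probe sets of such suffixes, Derl1 was at -0.15.
Edem1, which serves the degradation of misfolded glycoproteins, was at 8.83, 8.77, 8.97 and 9.01 in WT and at 9.25, 8.95, 9.27, 9.20 and 9.38 in null samples. Null replicate 2 lay within the WT samples and the others above them, for a difference of 0.32 (95% interval 0.12 to 0.51, adjusted p = 0.0570), with -0.14 on its second probe set. Its relative Edem2 went the other way, at -0.17 with every null sample below every WT sample (adjusted p = 0.0801).
Sel1l and Syvn1, the scaffold and the ubiquitin ligase of the main degradation complex, were higher in every null than in every WT sample, at 0.15 (adjusted p = 0.123) and 0.10 (adjusted p = 0.221), as was Derl3 at 0.19 (adjusted p = 0.112). None of these passed. The second probe set of Syvn1 was at -0.03 with overlapping groups, and the other 4 of Sel1l lay between 0.01 and 0.19, also with overlap. Derl2 was at 0.00 on its highest probe set and at 0.27 on another, where the groups did not overlap (adjusted p = 0.0655). Vcp, the ATPase that pulls substrates out of the membrane, was at 0.08 (adjusted p = 0.422), and Herpud1, an early target of the response, was at 0.03 (95% interval -0.08 to 0.13). The 4 translocon and ER membrane genes lay between -0.08 and 0.13, with none past the test and Tmbim6 at an unadjusted p under 0.05.

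Among cell type markers in the same samples, 5 of 9 Sertoli cell markers passed, 2 of 6 of macrophages and 1 of 4 of Leydig cells, and only the mean of the Sertoli cell markers was free of overlap among these 3 lists. Over all genes 10.6% passed, 5.82% higher and 4.82% lower, and the shorter lists hold too few genes to set against that share. The mean of 9 Sertoli cell markers ranged from 10.22 to 10.40 in WT and from 10.47 to 10.61 in null samples, with 5 genes that rose, namely Sox9 by 0.38 (adjusted p = 0.0108), Cldn11 by 0.27 (adjusted p = 0.0257) and Wt1 by 0.26 (adjusted p = 0.0351), and also Clu and Rhox5. For 6 macrophage markers the range was 8.11 to 8.53 in WT and 8.49 to 8.70 in null samples, with a rise of Cd163 and Mrc1, and for 4 Leydig cell markers 11.36 to 12.02 and 11.82 to 12.30, with a rise of Hsd3b1. In the 7 spermatogonial markers, of which Kit rose by 0.65 (adjusted p = 0.0259), it was 9.65 to 9.88 and 9.86 to 9.97. Of these 7, 5 had a positive difference and 2 a negative one, with Gfra1 at -0.17 on its highest probe set (adjusted p = 0.153). Counting every detected probe set, 2 of the 7 genes had at least 1 that passed, with 3 of 14 probe sets higher and 0 lower. The study lists Gfra1 among its up-regulated genes, a direction that its highest probe set does not show here. The 5 markers of peritubular myoid cells were at 8.73 to 9.26 and 8.79 to 9.07 with none past the test, and of 5 endothelial markers, at 7.06 to 7.21 and 7.14 to 7.27, Vwf fell by 0.37 on the log2 scale (adjusted p = 0.0130). The other 4 endothelial markers had positive differences, none past the test. All markers named were detected. Null replicate 1 had the highest signal of Ern1, Xbp1 and Eif2ak3, of the Sertoli cell markers and of the macrophage markers, and the lowest of Chac1. The part of these cells in the values of the members was not tested.

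**Figure D3:**
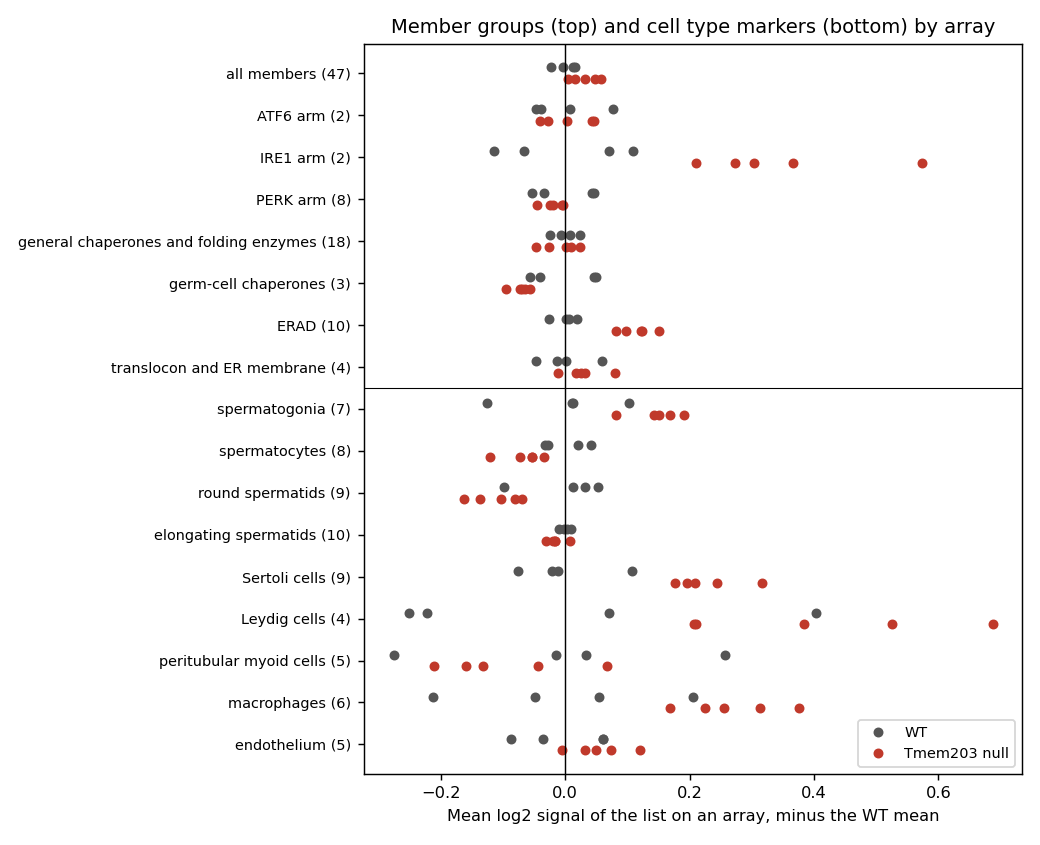
Mean log2 signal of each member group (top) and cell type marker list (bottom) on each array, as the difference from the WT mean (x axis), with the number of genes in brackets, 4 WT arrays in grey and 5 Tmem203 null arrays in red. The ERAD genes, the IRE1 arm and the Sertoli cell markers lie higher in every null than in every WT sample. The IRE1 arm is 2 genes, Ern1 and Xbp1, and Xbp1 alone overlaps. The spermatocyte markers lie lower in every null than in every WT sample, by a narrow margin, and the general chaperones overlap.

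The probe sets of a gene did not always tell the same. Of 32 members with more than 1 detected probe set, 14 had estimates of both signs. These were Ern1, Ddit3, Ppp1r15b, Hspa5, Hsp90b1, Calr, Dnajc3, Dnajc10, Hyou1, Ero1b, Syvn1, Edem1, Derl1 and Ssr1. The other probe sets of Hspa5 were at 0.00 and -0.04, that of Hsp90b1 at 0.10, those of Calr at 0.04 and -0.04 and that of Ddit3 at 0.06, none past the test. For Dnajc10 they were at 0.01 and -0.10, both with overlapping groups. Those of Ssr1, a translocon subunit, ran from -0.05 to 0.25. Over the 103 detected probe sets 3 passed upwards and 2 downwards, in 4 genes, Atf6, Derl1, Calr3 and Chac1, where 14.9% of all genes with a detected probe set had at least 1 that passed. For Ero1b, an ER oxidase, the highest probe set was at -0.02 and the dimmest at 0.43 (adjusted p = 0.0714). Which transcripts each probe set reads was not analysed here.

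**Figure D4:**
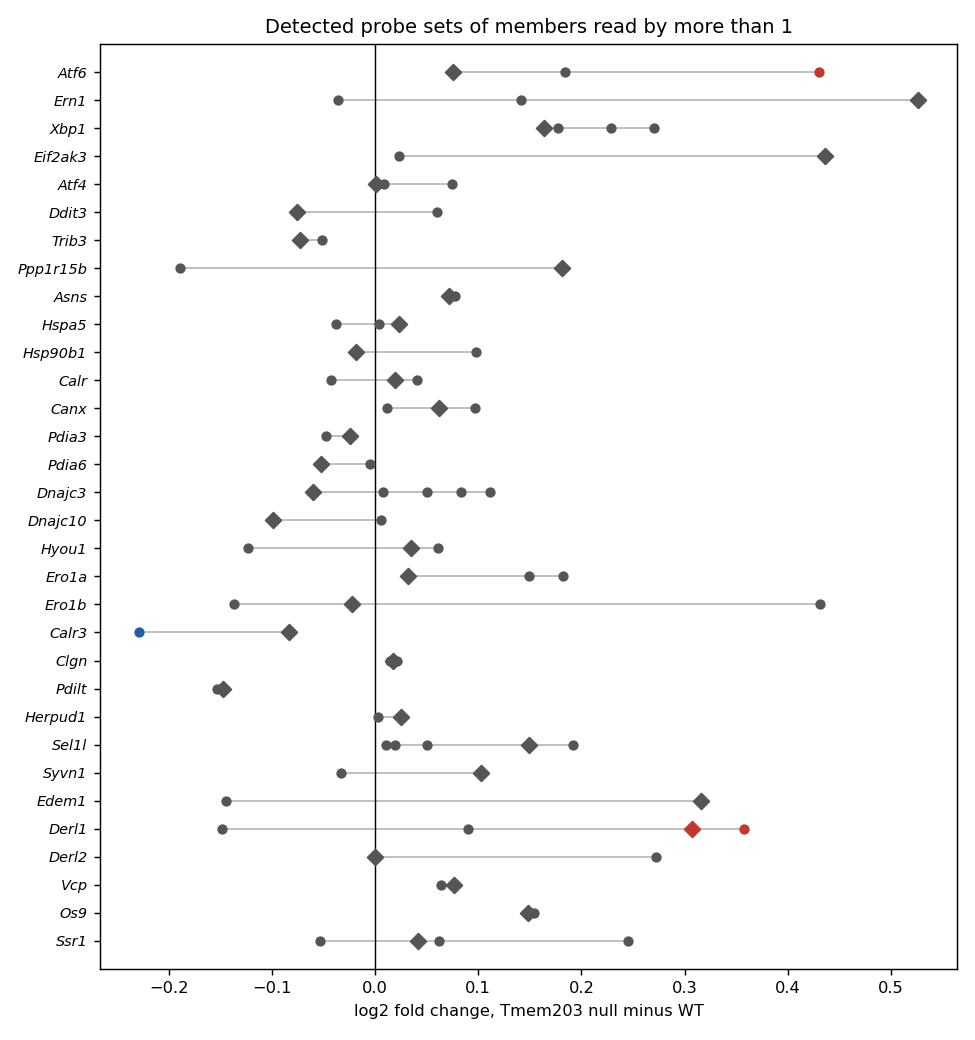
Log2 fold change (x axis, Tmem203 null minus WT) of each detected probe set (points) of the 32 members that have more than 1 (rows), with the highest-mean probe set as a diamond. An adjusted p below 0.05 is marked red where higher and blue where lower in null, and grey points missed it: the second probe set of Atf6 at 0.43 and that of Calr3 at -0.23 passed where the diamond did not.

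Genes of the same pathway outside the list were called in both directions. Of 33 further genes of ER stress signalling, 3 rose, 1 fell and 29 did not pass, with a median of 0.09. This is near the share over all genes, of which 10.6% passed, 5.82% higher and 4.82% lower. The death receptor gene Tnfrsf10b, a known CHOP target, fell by 0.78 in log2 signal (standard error 0.06, adjusted p = 9.4e-05), whereas the cell death gene Bcl2l11, which encodes BIM, rose by 0.58 (standard error 0.09, adjusted p = 0.00370). Creb3l2, an ER-bound transcription factor related to ATF6, rose by 0.55 (standard error 0.10, adjusted p = 0.00899). The third gene that rose was Mbtps2, the protease that cleaves ATF6, by 0.35 (adjusted p = 0.0487), which is named here after its value was seen.
Among 55 further genes of ER folding, ERAD and translocation, 1 rose, 3 fell and 51 did not pass, with a median of 0.00, so that fewer passed than the 10.6% of all genes. The disulfide isomerase gene Pdia5 rose by 0.48 (standard error 0.09, adjusted p = 0.0113). Uggt2, a relative of the glucosyltransferase that returns glycoproteins to calnexin and calreticulin, fell by 0.36 in log2 signal (standard error 0.05, adjusted p = 0.00160), and Ube2g2, a ubiquitin-conjugating enzyme of ERAD, fell by 0.31 on that scale (standard error 0.06, adjusted p = 0.0108). Sec11c, a subunit of signal peptidase and also named after its value was seen, fell by 0.25 on that scale (adjusted p = 0.0121).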

How the data were processed

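RNA from 4 WT and 5 Tmem203 null testis samples was hybridised to 1 Affymetrix array each. The authors deposited 1 log2 value for each probe set and array, made by Robust Multichip Average (RMA), that is, background adjustment, quantile normalization between arrays and a summary over probes, and no array was dropped. The number of arrays limits the precision. Scanner files were not analysed here, and neither the background adjustment nor scan batches could be varied.

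Genotypes were compared in limma 3.58.1 (lmFit, eBayes) in R 4.3.3 on 45037 probe sets, leaving out 64 control probe sets, with Benjamini-Hochberg adjustment over all of them. The thresholds of the methods were an adjusted p under 0.05, 1.5-fold and a signal of 32 (log2 of 5) on at least 1 array. Intervals come from the moderated test. Probe sets were named from the platform annotation, of which 34741 of 34945 single-gene entries matched the RefSeq table of GRCm38.p6 by Entrez identifier. Ero1l and Ero1lb are named Ero1a and Ero1b.

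The members and lists were chosen with earlier results of these data known. Named are members that passed on any detected probe set, the germ-cell chaperones, defining genes of each arm, the 3 largest differences either way and up to 3 genes with the smallest p of each other pathway list and of marker lists that moved. A few further members, among them Dnajc10, Derl3, Trib3 and Ppp1r15b, were named after their values were seen. Lists were described by counts and medians. On simulated arrays of 45037 probe sets, 14 of 50 changes of 1.25-fold passed, 36 of 50 of 1.5-fold, 49 of 50 of 2-fold and 50 of 50 of 3-fold, and 3.25% of calls were of unchanged probe sets. The simulated noise was independent between probe sets and only 50 of each size were changed, while 3367 probe sets passed in the data. These shares may therefore not carry over to the real arrays. Python 3.11.15 was used for joining and drawing.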

Additional observations from a re-analysis of the deposited data

Results flagged for a closer look

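In 94 groups of samples (47 members, WT and null), 6 had a lowest or highest sample that stood apart from the others by Dixon's 95% critical value. Chance flags about 1 in 20 groups. For Trib3 WT replicate 3 was at 5.29, with the other WT samples between 4.84 and 4.91, and null replicate 1 was at 5.07, with the others between 4.84 and 4.91. For Vcp WT replicate 3 was at 12.48, below the others at 12.59. Among null samples, replicate 2 of Pdia3 was at 12.63 below 12.70 to 12.71, replicate 1 of Ero1b at 12.76 below 12.80 and replicate 4 of Derl2 at 13.59 above 13.51 to 13.52.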

How the results depend on the processing

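The fall of Chac1 kept its direction in all 20 alternatives, and its adjusted p missed 0.05 with the replicate number as a block (0.0762) and in the methods' t-test (named there for the study in general, with limma for the arrays) after Benjamini-Hochberg (0.0599), where 0 members were lower or past 1.5-fold. The rise of Derl1 was lost under the block (adjusted p = 0.0980) and with the mean over a gene's probe sets (0.0641), and it reversed to -0.15 without probe sets of the suffixes _x, _s and _a. That setting gave 0 members higher, 2 lower (Chac1, Calr3) and a median of 0.0075 over the 40 that remained. Calr3, whose highest probe set has such a suffix, was then at -0.23 (adjusted p = 0.0235). The block left 1 member higher, Eif2ak3, in place of Derl1. The replicate numbers did not pair the samples, with correlations of -0.064 to 0.078 between deviations of same-numbered samples. The probe set with the smallest p gave 2 higher (Atf6, Derl1) and 2 lower (Chac1, Calr3) with a median of 0.040, and the mean over probe sets 3 higher (Atf6, Eif2ak3, Os9) and 2 lower (Chac1, Edem2). The trend and robust variance gave 6 higher (Ern1, Eif2ak3, Sel1l, Edem1, Derl1, Tmbim6) and 2 lower (Chac1, Pdilt). Array weights gave 3 higher (Edem1, Derl1, Derl3) and detected probe sets alone 3 higher (Ern1, Edem1, Derl1). The methods' t-test at p under 0.01 gave 4 higher and 4 lower. Centring the arrays on their median moved the median of the members to -0.010. Without 1 array at a time, 1 to 2 members were higher and 1 to 2 past 1.5-fold, with a median of 0.0088 to 0.029: Eif2ak3 was added without WT replicate 1 (adjusted p = 0.0425), Edem1 without null replicate 2 (0.0162) and Ern1 without WT replicate 4 (0.0356). The causes were not tested.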
